A study of Mus musculus with 8 samples.

Results

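Primary CD45-negative cells grown from mouse atrial tissue were compared with left ventricular wall, gene by gene, on 4 of the 8 arrays of the series, 2 for each group. The CD45-negative cells were derived from left atrial appendages, the pouch of the left atrium, of C57BL/6 mice aged 8 to 12 weeks. The appendages were digested strongly, with trypsin at 0.25% and collagenase D at 0.1%, and kept as explants in medium with serum. The cells were then sorted for c-kit, a receptor tyrosine kinase found on mast cells and some progenitor cells, and for the absence of CD45, the surface phosphatase of white blood cells (c-kit+, CD45-). The left ventricle samples were wall biopsies of C57BL/6 mice aged 12 weeks and are the control of the study. The labels name no allele and no drug in either group. The labels do not say whether tissue of several animals was pooled. The remaining arrays hold CD45-positive cells grown after a weaker digestion (0.05% trypsin, 2 arrays) and cells of passage 8 descended from c-kit+, CD45+ cells (2 arrays). They were used for the estimate of the spread and for a comparison at the end. Heart chamber, digestion, culture, sorting and the kit for RNA extraction all differ between the groups, and their parts in any difference cannot be told apart. In the ventricle biopsies, fewer cells of a type and less RNA per cell cannot be told apart either.

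Working ventricular wall is dominated by cardiomyocytes, cells packed with sarcomeres and with mitochondria that burn mainly fatty acids, and between them lie capillaries, fibroblasts, mural cells, nerves and resident macrophages. Cells that migrate out of heart explants and stick to plastic are in large part connective tissue cells. Fibroblasts of this kind build collagen matrix, release the proteases and inhibitors that remodel it, and make chemokines when they are stimulated by injury or serum. A list of marker genes was therefore followed for each cell type of the wall as well as for the pathways that distinguish muscle from connective tissue.

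Every gene with a probe on the array was open to description. Of 35019 gene names, 22403 were tested because their probe stood well above background on both CD45-negative arrays, on both left ventricle arrays, or on all 4. All levels below are log2 signals relative to the 75th percentile of the same array, so 0 is the level of the 75th percentile itself. A difference is the mean of the CD45-negative cells minus the mean of the left ventricle, n = 2 arrays per group throughout. A gene passed when its limma adjusted p was under 0.05 and its log2 difference was 1 or more in size. A fit with 1 array left out holds 1 array of that group. The gap between the replicates of that group then does not enter the spread, and a pass there does not reflect it. The 75th percentile corresponded to signals of 521 and 426 in CD45-negative cells and 600.2 and 569 in left ventricle, and 51.5% to 60.1% of the spots of these arrays were well above background. Precision is limited by the small number of arrays. Whether replicates are separate cultures or animals is not stated in the labels, and p-values reflect only how far these samples lie apart, a spread that may be technical.

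One array of each group stood apart from its partner. Left ventricle replicate 2 carried more of several transcripts of atrial muscle than replicate 1. The atrial myosin light chain Myl7 was at -6.68 and -5.83 in CD45-negative cells, against -2.55 and 5.21 in left ventricle (not well above background on either CD45-negative array). Its partner Myl4 was at 1.27 and 0.80 in CD45-negative cells, against 0.72 and 7.76 in left ventricle. Sarcolipin (Sln), the atrial inhibitor of the calcium pump, was at -6.89 and -6.17 in CD45-negative cells, against -5.12 and 6.94 in left ventricle, and only the last value was well above background. The summed linear signal of the 10 atrial marker genes was 60.0 and 41.1 times the 75th percentile in CD45-negative cells, against 89.7 and 868 in left ventricle. Fat cell transcripts were also higher in left ventricle replicate 2, with a summed level of 4.36 and 6.44 in CD45-negative cells, against 196 and 324 in left ventricle. In the CD45-negative cells, replicate 2 carried more macrophage transcripts than replicate 1. The summed level of the 31 macrophage and monocyte genes was 165 and 308, against 169 and 147 in left ventricle and 3419 and 3309 in CD45-positive cells. The sum gives most weight to bright genes, among them Plac8 and Lgals3, which were higher in the cells and are expressed outside macrophages too. Relative to the left ventricle mean, the median of the tested members was -3.44 in replicate 1 and 0.23 in replicate 2. Over all tested genes the standard deviation between replicates was 0.686 log2 units in CD45-negative cells and 0.416 in left ventricle. More than 2 log2 units lay between the CD45-negative replicates for 1028 genes, 799 of them higher in replicate 2, against 223 genes between the left ventricle replicates.

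CD45-negative cells and left ventricle differed at a large part of the transcripts measured. Of 22403 genes tested, 4649 (20.8%) were higher in CD45-negative cells, 4475 (20.0%) were lower and 13279 did not pass, among them A3galt2, which had no usable left ventricle value. The median difference over all tested genes was 0.06 log2 units. Fitted on only the 4 arrays compared, 3897 genes were higher and 3918 lower. Counts of list members below are to be read against the shares of 20.8% and 20.0%. Among the genes that passed, 329 were above background in CD45-negative cells alone and 1377 in left ventricle alone. The groups did not overlap in 37.6% of genes in the direction of the CD45-negative cells and in 33.8% in the direction of left ventricle. Of the genes that passed, 2534 had several probes tested. For 959 of these some probe did not pass, and for 84 some probe passed in the opposite direction.

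**Figure D1:**
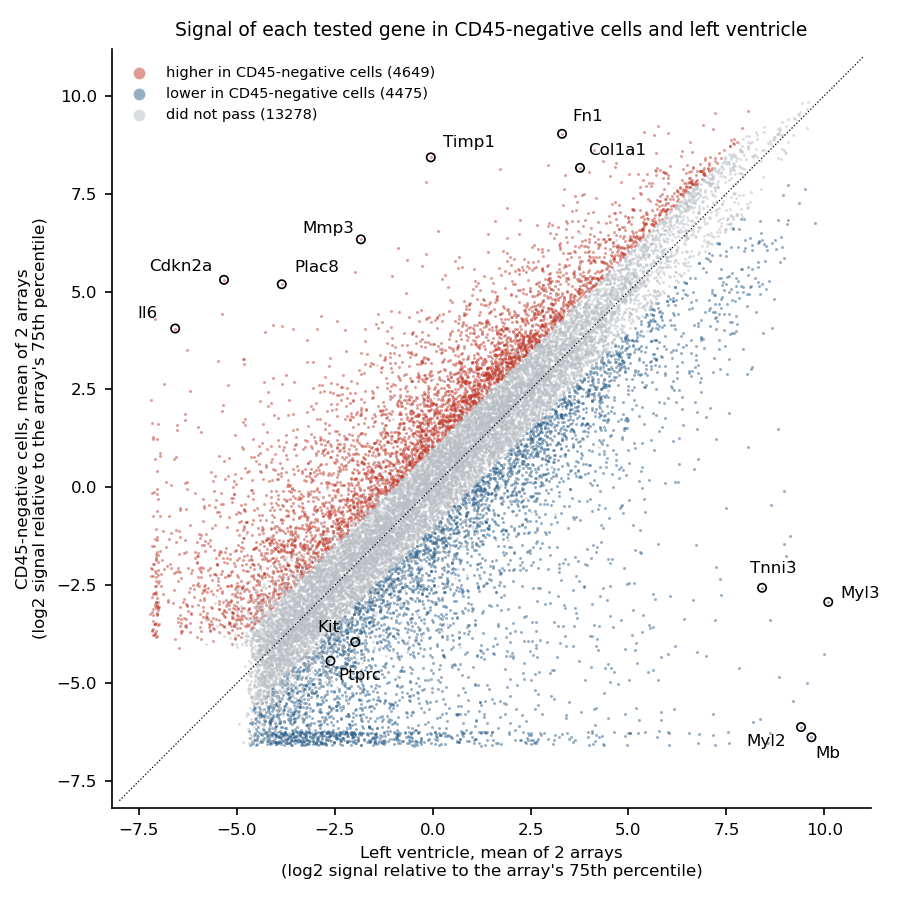
Mean log2 signal of each of the 22403 tested genes in CD45-negative cells (vertical axis) against left ventricle (horizontal axis), each relative to the 75th percentile of its array and averaged over 2 arrays. Circled points carry gene names. Red points are higher (4649) and blue points lower (4475) in CD45-negative cells, grey points did not pass (A3galt2 is not drawn), and the dotted line marks equal levels. Heart muscle genes such as Mb and Myl2 lie at the lower right, Il6 and Cdkn2a at the upper left.

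The 2 antigens of the sort gave an incomplete check of the labels. Ptprc, the gene of CD45, was at -5.52 and -3.34 in CD45-negative cells, against -2.33 and -2.89 in left ventricle (not well above background on CD45-negative replicate 1, log2 difference -1.82, limma adjusted p = 0.0582). The difference did not pass. The CD45-positive cells had 2.04 and 1.93, and the difference of the CD45-negative cells from them was -6.42 log2 units (SE 0.66, limma adjusted p = 0.00138). Kit, the gene of c-kit, was at -6.34 and -1.55 in CD45-negative cells, against -1.48 and -2.48 in left ventricle (not well above background on CD45-negative replicate 1, log2 difference -1.97, limma adjusted p = 0.276). CD45-negative replicate 1 lay below both left ventricle values and replicate 2 between them. Without CD45-negative replicate 1 the difference was 0.43, and without replicate 2 it was -4.37. For Ptprc the differences in the same fits were -0.73 and -2.91. The 2 antigens were thus at low levels in all 4 arrays. In build mm9 the Ptprc probe is on chromosome 1 from 139961083 to 139961142. The Kit probe is on chromosome 5 from 76052394 to 76052453.

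The genes with the largest excess in CD45-negative cells included secreted regulators of the matrix. Timp1, an inhibitor of matrix metalloproteinases, was at 7.90 and 8.95 in CD45-negative cells, against -0.33 and 0.24 in left ventricle (log2 difference 8.47, SE 0.37, limma adjusted p = 3.2e-05), a 356-fold higher level. Mmp3 (stromelysin), a matrix metalloproteinase of connective tissue cells, was at 6.20 and 6.46 in CD45-negative cells, against -2.95 and -0.72 in left ventricle, or 287-fold higher (SE 0.65 on the log2 scale, limma adjusted p = 0.000182). Both CD45-negative replicates lay above 6 log2 units for these genes and no left ventricle array above 0.24. The highest difference among genes well above background on all 4 arrays belonged to Plac8, a small cysteine-rich protein, which was at 5.86 and 4.51 in CD45-negative cells, against -3.45 and -4.26 in left ventricle (log2 difference 9.04, SE 0.47, limma adjusted p = 5.0e-05). Tubb3, a beta tubulin best known from neurons, was at 3.75 and 4.16 in CD45-negative cells, against -4.13 and -4.43 in left ventricle (log2 difference 8.23). For each of these 4 genes the lower CD45-negative value exceeded the higher left ventricle value by several log2 units. Plac8 had log2 differences of 8.37 to 9.71 with 1 CD45-negative array left out. Mmp3 had log2 differences of 7.05 to 9.28 with 1 left ventricle array left out. Probes lie on chromosome 5 from 100982797 to 100982856 for Plac8, on chromosome X from 20451802 to 20451861 for Timp1 and on chromosome 9 from 7455751 to 7455810 for Mmp3 (build mm9).

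Enzymes, a transporter and secreted proteins made up 7 more of the 12 highest differences. Steap2, a metalloreductase of the endosome membrane, was at 4.18 and 4.07 in CD45-negative cells, against -4.27 and -3.42 in left ventricle (log2 difference 7.97, SE 0.29, limma adjusted p = 1.9e-05). Cholesterol hydroxylase Ch25h was at 4.02 and 4.09 in CD45-negative cells, against -3.61 and -3.51 in left ventricle (log2 difference 7.61). Sqle (squalene epoxidase), an early enzyme of sterol synthesis, was at 4.51 and 3.59 in CD45-negative cells, against -2.18 and -3.71 in left ventricle (log2 difference 7.0). Slc16a3, the lactate exporter MCT4, was at 5.95 and 6.27 in CD45-negative cells, against -1.02 and -0.78 in left ventricle (log2 difference 7.01). The secreted chloride channel regulators Clca3a1 and Clca3a2 were higher by 7.46 and 7.22 log2 units, but these neighbouring genes are near-identical copies and their probes may not separate them. The neutrophil chemokine Cxcl1 was at 4.52 and 3.03 in CD45-negative cells, against -3.32 and -3.08 in left ventricle, 126-fold higher in CD45-negative cells (limma adjusted p = 9.5e-05). Cxcl1 had log2 differences of 6.23 to 7.72 with 1 CD45-negative array left out. Sqle had log2 differences of 6.23 to 7.76, Clca3a1 of 6.84 to 8.08 and Clca3a2 of 6.54 to 7.91 with 1 left ventricle array left out. These genes passed in each of those fits.

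A further group was not well above background in left ventricle at all, so only a lower bound of the fold can be given. Bounds hold on the scale of the processed signal: with the normexp correction, which adds an offset of 50 to each signal, the differences of all 37 named genes with a bound were smaller than their bounds. Il6, the cytokine that drives the acute phase response, was at 3.87 and 4.25 in CD45-negative cells, against -7.06 and -6.09 in left ventricle (not well above background on either left ventricle array) and therefore at least 518-fold higher in CD45-negative cells (log2 difference 10.63, SE 0.33, limma adjusted p = 1.3e-05). Steap1, a relative of Steap2, was at least 615-fold higher, with 4.18 and 4.43 in CD45-negative cells. Ereg (epiregulin), a ligand of the EGF receptor, was at least 354-fold higher, with 3.12 and 3.90 in CD45-negative cells. The chemokine Cxcl5 was at least 292-fold higher, with 2.90 and 3.56, and the lysophospholipid transporter Mfsd2a at least 195-fold, with 2.91 and 2.39 in CD45-negative cells. For each of these 5 genes the 2 CD45-negative values lay within 1 log2 unit of each other. Ereg had log2 differences of 8.86 to 10.70 with 1 left ventricle array left out.

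The promoters of 3 of these secreted factors are shown because the letters of motifs known from inducible genes lie in them, beside that of Myl3, the ventricular light chain described below, for contrast. The sequences are from RefSeq (assembly GRCm38.p6), each on the plus strand from 250 bases before to 50 after the annotated start. Capitals mark matches on either strand to the AP-1 motif TGANTCA, the NF-kappaB motif (GGG, any 2 bases, TTTCC), the TATA box TATAAA, the M-CAT motif CATTCC (bound by TEAD factors) or the CArG box (bound by serum response factor).
Mmp3, chr9:7445572-7445871: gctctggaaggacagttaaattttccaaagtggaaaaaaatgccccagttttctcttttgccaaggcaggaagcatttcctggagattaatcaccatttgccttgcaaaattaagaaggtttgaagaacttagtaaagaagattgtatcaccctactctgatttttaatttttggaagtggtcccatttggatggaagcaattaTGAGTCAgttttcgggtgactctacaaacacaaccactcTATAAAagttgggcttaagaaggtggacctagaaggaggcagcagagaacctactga
Il6, chr5:30012864-30013163: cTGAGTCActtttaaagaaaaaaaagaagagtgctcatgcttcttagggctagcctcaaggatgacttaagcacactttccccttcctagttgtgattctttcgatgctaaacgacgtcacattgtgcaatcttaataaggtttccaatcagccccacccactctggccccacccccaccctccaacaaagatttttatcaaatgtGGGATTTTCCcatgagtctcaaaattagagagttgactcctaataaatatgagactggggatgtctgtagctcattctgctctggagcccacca
Cxcl1, chr5:90890995-90891294: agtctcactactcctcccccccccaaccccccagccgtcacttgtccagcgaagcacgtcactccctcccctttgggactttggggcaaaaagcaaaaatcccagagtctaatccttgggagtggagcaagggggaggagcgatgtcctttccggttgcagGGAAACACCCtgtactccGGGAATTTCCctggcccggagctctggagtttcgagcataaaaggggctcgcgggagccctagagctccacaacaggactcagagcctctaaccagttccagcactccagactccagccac
Myl3, chr9:110763428-110763727: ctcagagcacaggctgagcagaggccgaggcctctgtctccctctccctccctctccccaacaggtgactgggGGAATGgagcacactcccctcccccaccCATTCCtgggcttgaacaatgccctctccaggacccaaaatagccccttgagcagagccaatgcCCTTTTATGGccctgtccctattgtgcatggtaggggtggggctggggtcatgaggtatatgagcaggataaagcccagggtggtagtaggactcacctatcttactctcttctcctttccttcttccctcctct
The Mmp3 promoter holds an AP-1 match whose first base is at position -46 from the start, and a TATA box at -7. That of Il6 holds an AP-1 match at -249 and an NF-kappaB match at -44, and that of Cxcl1 holds 2 NF-kappaB matches at -89 and -71. The Myl3 promoter holds M-CAT matches at -177 and -149, a CArG box at -85 and neither an AP-1 nor an NF-kappaB match. Among all 32851 promoters of the table, 7.81% held an AP-1 match, 1.63% an NF-kappaB match, 13.6% the TATA box, 14.7% an M-CAT match and 1.63% a CArG box. Of the 16 genes named above as higher, 13 were in the table, of which 3 held an AP-1 match, 3 an NF-kappaB match, 3 a TATA box, 2 an M-CAT match and 0 a CArG box. Of the 14 found among the 17 named as lower, 0 held an AP-1 or NF-kappaB match, 2 held a TATA box, 4 an M-CAT match and 1, Myl3, a CArG box. The MEF2 motif YTAWWWWTAR (Y is C or T, W is A or T, R is A or G) was searched as well. It was held by 3.19% of all promoters, by 0 of the 13 and by 0 of the 14. The percentages are shares of promoters, whereas a gene was counted when any of its promoters in the table held the motif. A match describes letters in this window and does not show that a factor binds there.

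**Figure D2:**
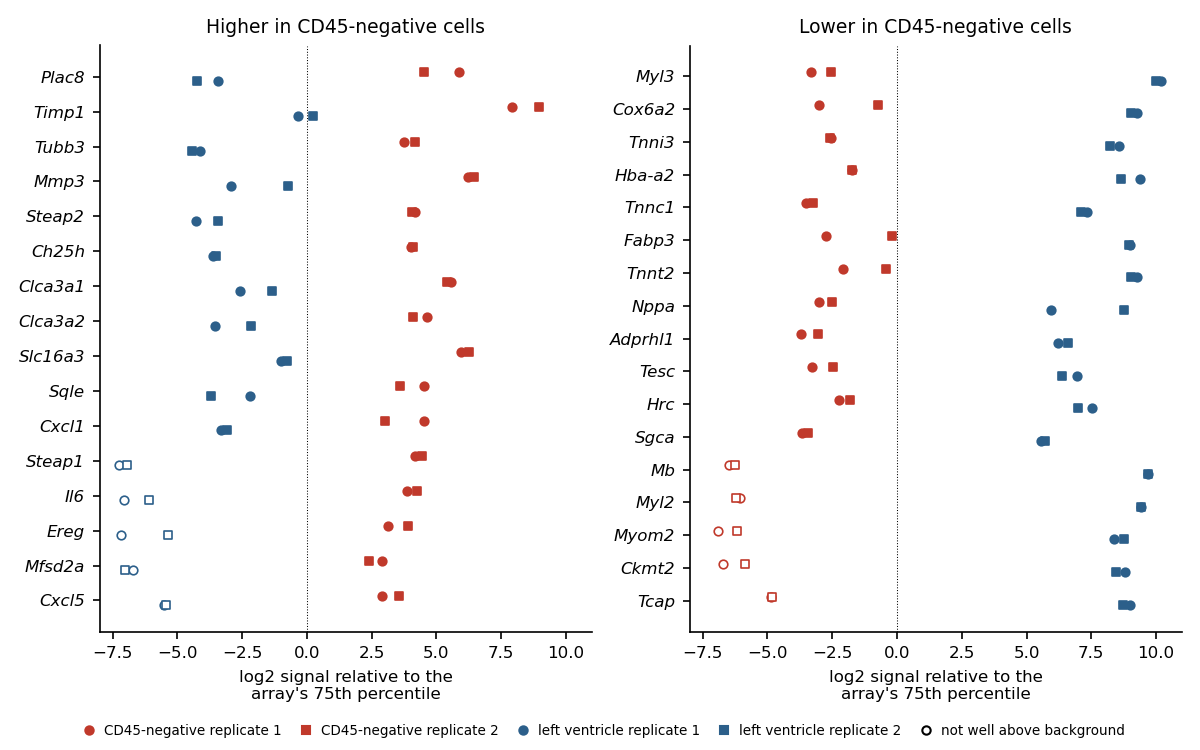
Log2 signal relative to the 75th percentile of the array, for each replicate, of the 16 genes named as higher (left panel) and the 17 named as lower (right panel) in CD45-negative cells. Red symbols are CD45-negative cells, blue symbols left ventricle, circles replicate 1, squares replicate 2, and open symbols were not well above background. The groups are separated in each row, and Nppa shows the widest gap between the left ventricle replicates in the right panel.

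Genes of matrix turnover were mostly higher in CD45-negative cells. Of 31 matrix proteases and their inhibitors, 27 were tested, 24 were higher and 2 lower, with a median difference of 3.14. Plaur, the receptor that holds urokinase on the cell surface, was at 2.08 and 3.07 in CD45-negative cells, against -1.24 and -0.91 in left ventricle (log2 difference 3.65, SE 0.33, limma adjusted p = 0.000294). The groups did not overlap. The stromal proteases Adamts2 (procollagen cleavage), Mmp19 and Mmp14 were higher by 3.72, 4.78 and 3.69 log2 units. The gelatinase Mmp2 had a smaller difference of 1.30 (limma adjusted p = 0.00628). The exceptions were the membrane protease Mmp15 and the heart-enriched inhibitor Timp4. Mmp15 was at -6.78 and -6.06 in CD45-negative cells, against 1.56 and 0.64 in left ventricle (not well above background on either CD45-negative array), at least 40.9-fold lower in CD45-negative cells. Timp4 was at -4.39 and -2.67 in CD45-negative cells, against 3.38 and 3.03 in left ventricle (log2 difference -6.73). Mmp10, Mmp12 and Mmp13, known from inflamed tissue, were not tested: of the CD45-negative arrays they were well above background on replicate 2 alone, and Mmp13 also on left ventricle replicate 1. Timp4 had log2 differences of -7.59 to -5.87 with 1 CD45-negative array left out.

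Collagen genes and the enzymes that assemble them followed the same direction. Of 28 tested, 26 were higher and 1, the collagen-binding proteoglycan Fmod, was lower, with a median difference of 2.96. The fibrillar collagen chains Col1a1, Col1a2 and Col3a1 were higher by 4.40, 3.67 and 3.98 log2 units. Col1a1 was at 7.94 and 8.38 in CD45-negative cells, against 3.87 and 3.66 in left ventricle (21.1-fold). The cross-linking enzyme Loxl2 was at 5.85 and 5.18 in CD45-negative cells, against 1.79 and 1.92 in left ventricle. The prolyl hydroxylase subunit P4ha2, whose product stabilises the triple helix, was at 5.06 and 5.09 in CD45-negative cells, against 3.39 and 2.34 in left ventricle. Both stood apart from left ventricle with no overlap. The collagen chaperone Serpinh1 was at 7.75 and 7.22 in CD45-negative cells, against 4.66 and 3.07 in left ventricle. Basement membrane collagen IV differed less, with 1.09 for Col4a1 and 1.07 for Col4a2, both near the threshold of 1. Fmod was at -2.90 and -3.48 in CD45-negative cells, against -2.26 and -0.08 in left ventricle (limma adjusted p = 0.0402). Serpinh1 had log2 differences of 2.83 to 4.42 and Fmod of -3.11 to -0.93 with 1 left ventricle array left out. Col4a1 did not pass without CD45-negative replicate 1 (0.86) or left ventricle replicate 2 (0.83). Col4a2 did not pass without CD45-negative replicate 1 (0.81) or left ventricle replicate 2 (0.83). Fmod did not pass without CD45-negative replicate 1 (-2.31), CD45-negative replicate 2 (-1.73), left ventricle replicate 2 (-0.93). Col4a1 (0.93), Col4a2 (0.93) and Fmod (-0.95) did not pass with the normexp background correction.

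Most fibroblast and mesenchymal genes were higher in CD45-negative cells. Of 28 tested, 19 were higher, 0 lower and 9 did not pass, with a median of 2.24. The groups did not overlap in 20 of them in the direction of the CD45-negative cells and in 6 in the direction of left ventricle. Over all genes these shares were 37.6% and 33.8%. Fn1 (fibronectin) was at 8.99 and 9.06 in CD45-negative cells, against 3.15 and 3.46 in left ventricle (log2 difference 5.72, SE 0.18, limma adjusted p = 1.3e-05). The surface antigen Thy1 was at 7.30 and 6.96 in CD45-negative cells, against 2.26 and 1.53 in left ventricle. The calcium-binding protein S100a4 was at 8.11 and 8.13 in CD45-negative cells, against 1.89 and 1.54 in left ventricle. The PDGF receptors Pdgfra and Pdgfrb were higher by 2.34 and 2.32 log2 units. The mesenchymal transcription factor Twist1 was at 1.81 and 0.94 in CD45-negative cells, against -3.04 and -2.23 in left ventricle. The genes that did not pass include the matrix proteoglycan Dcn (log2 difference -0.76), the stromal antigens Cd34 (-1.33) and Ly6a (-0.88), and Tcf21, a transcription factor of heart fibroblasts. Tcf21 was at 1.80 and -0.33 in CD45-negative cells, against -0.79 and -0.49 in left ventricle, so the groups did not overlap but CD45-negative replicate 2 lay close to ventricle (log2 difference 1.38, limma adjusted p = 0.111). Cd34 passed as lower under 8 of the 17 alternatives tried. The labels name the cells only by their antigens. The difference of Dcn was -1.24 without left ventricle replicate 1 and -0.29 without replicate 2. Without CD45-negative replicate 1 it was -2.11 for Cd34, -0.60 for Ly6a and 0.31 for Tcf21. Without CD45-negative replicate 2 it was -0.55, -1.17 and 2.44 for these genes. For Ly6a it was -1.06 without left ventricle replicate 1.

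Interleukins, chemokines and related genes were mostly higher where they could be tested. Of 36 genes in the group, 25 were tested, 18 were higher and 2 lower, with a median of 2.13 (2.93 without CD45-negative replicate 1). The monocyte chemokines Ccl2 and Ccl7 were high in the cells: Ccl2 was at 5.49 and 5.31 in CD45-negative cells, against -0.70 and -1.38 in left ventricle (log2 difference 6.44, SE 0.25, limma adjusted p = 2.3e-05), and Ccl7 was higher by 6.68 log2 units. Csf1, the growth factor of macrophages, was at 5.72 and 6.35 in CD45-negative cells, against 2.19 and 1.42 in left ventricle. Cx3cl1, a membrane-bound chemokine, was at 5.59 and 3.89 in CD45-negative cells, against 0.35 and 0.64 in left ventricle. The groups were apart in these genes, with the wider gap between CD45-negative replicates for Cx3cl1. Ptgs2 (cyclooxygenase-2), which starts prostaglandin synthesis, was at -0.49 and 0.83 in CD45-negative cells, against -6.08 and -4.05 in left ventricle (not well above background on left ventricle replicate 1, log2 difference 5.23). Cxcl12, which holds CXCR4-bearing cells in tissue, had 6.64 and 6.55 in CD45-negative cells, against 4.93 and 4.59 in left ventricle, a difference of 1.84. The 2 genes that were lower were Ccl11 (eotaxin, -2.69) and Il1rl1, the receptor of interleukin 33, which was at least 4.39-fold lower. Tnf, Il1a, Il1rn, Csf2, Csf3, Cxcl3 and Ccl20 were not well above background on any of the 4 arrays, and Il1b, Ccl3, Ccl4 and Cxcl2 only on CD45-negative replicate 2. Cx3cl1 had log2 differences of 3.39 to 5.09 and Il1rl1 of -4.44 to -2.99 with 1 CD45-negative array left out. Ccl7 had log2 differences of 5.80 to 7.56 with 1 left ventricle array left out. Ptgs2 had log2 differences of 4.22 to 6.25 with 1 array of either group left out. Ccl11 did not pass without CD45-negative replicate 1 (-2.74), CD45-negative replicate 2 (-2.65), left ventricle replicate 1 (-2.35), left ventricle replicate 2 (-3.04). Il1rl1 (-0.81) did not pass with the normexp background correction. Il1rl1 (-0.45) did not pass with the mean over all probes.

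Secreted growth factors were more often higher than lower. Of 35 tested, 16 were higher (45.7%, against 20.8% of all tested genes) and 5 lower (14.3%, against 20.0%), with a median of 1.07. Hgf (hepatocyte growth factor) was at 0.68 and 2.25 in CD45-negative cells, against -5.98 and -7.07 in left ventricle (not well above background on either left ventricle array), at least 85.9-fold higher. Grem1 (gremlin 1), an antagonist of BMPs, was at least 96.5-fold higher, although its CD45-negative values of 0.06 and 3.20 lie far apart. Inhba, the subunit of activin A, was at 3.72 and 4.27 in CD45-negative cells, against -1.97 and -0.36 in left ventricle. Fgf7, a stromal growth factor that acts on epithelium, was at 2.27 and 1.89 in CD45-negative cells, against -2.43 and -2.02 in left ventricle. The lymphatic factors Vegfc and Vegfd were higher by 2.21 and 5.16 log2 units. The 5 that were lower were Vegfb (-3.38), a VEGF family member abundant in heart muscle, Pdgfb (-4.0), made by endothelium and macrophages, Pgf (-1.50), Igf2 and Fgf10, with bounds of 2.65-fold and 1.71-fold for the last pair. The angiogenic factor Vegfa (0.50) and Tgfb1 (0.55), a driver of matrix production, did not pass. Hgf had log2 differences of 7.20 to 8.77, Grem1 of 7.22 to 10.36 and Pdgfb of -5.52 to -2.49 with 1 CD45-negative array left out. Inhba had log2 differences of 4.35 to 5.96 with 1 left ventricle array left out. Pdgfb did not pass without left ventricle replicate 1 (-3.98) or left ventricle replicate 2 (-4.02). Pgf (-0.80), Igf2 (-0.25) and Fgf10 (-0.085) did not pass with the normexp background correction.

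Genes of the non-muscle actin cytoskeleton were mostly higher. Of 26 genes tested, 23 were higher and 1, Ezr (ezrin, -1.13), was lower, with a median of 2.35. The cytoplasmic actins Actb and Actg1 were higher by 2.35 and 2.36 log2 units. Non-muscle myosin Myh9 was at 7.26 and 7.53 in CD45-negative cells, against 4.50 and 3.82 in left ventricle, although its second probe passed in the opposite direction. Lgals1 (galectin 1) was at 8.35 and 8.23 in CD45-negative cells, against 5.10 and 4.28 in left ventricle. The small calcium-binding protein S100a6 was at 8.75 and 8.30 in CD45-negative cells, against 4.48 and 4.44 in left ventricle. The membrane-binding annexin Anxa2 was at 8.33 and 8.03 in CD45-negative cells, against 4.86 and 4.47 in left ventricle. The groups did not overlap in any of the 26 genes, with 24 higher and 2 lower, where 37.6% and 33.8% of all genes were apart in these directions. Ezr did not pass without CD45-negative replicate 1 (-0.97) or left ventricle replicate 1 (-0.80). Myh9 (0.86) did not pass with the mean over all probes.

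Genes of cell division were mostly higher in CD45-negative cells, and inhibitors of the cell cycle and p53 targets differed in both directions. Of 29 division genes tested, 26 were higher and 0 lower, with a median of 4.0 (3.73 with bounds, 3.34 without left ventricle replicate 2). Left ventricle replicate 2 was above replicate 1 in 1 of the 29, and the median of replicate 1 minus replicate 2 was 1.08, against 0.07 over all tested genes. The mitotic cyclin Ccnb1 was at 2.70 and 2.52 in CD45-negative cells, against -2.23 and -3.60 in left ventricle (log2 difference 5.53, SE 0.42, limma adjusted p = 0.000151). The spindle checkpoint kinase Bub1 was at 0.66 and 0.12 in CD45-negative cells, against -4.43 and -6.91 in left ventricle (not well above background on left ventricle replicate 2). The proliferation antigen Mki67 was at 4.52 and 3.96 in CD45-negative cells, against 0.89 and 0.27 in left ventricle. Left ventricle held no value as high as either CD45-negative value in these genes. Ccne1, the cyclin of entry into S phase, was at 2.99 and 3.12 in CD45-negative cells, against -0.97 and -1.14 in left ventricle, a difference of 4.11. Pcna, the clamp of DNA polymerase, had a difference of 0.52 and did not pass. Of 18 inhibitors and p53 targets, 8 were higher (44.4%, against 20.8% of all tested genes) and 3 lower (16.7%, against 20.0%). Their median was 1.12, and 7 did not pass. Cdkn2a, the locus of p16 and ARF, was at 5.10 and 5.50 in CD45-negative cells, against -3.92 and -6.73 in left ventricle (not well above background on left ventricle replicate 2, log2 difference 10.63, SE 0.84, limma adjusted p = 0.000175). Its neighbour Cdkn2b was at 3.28 and 3.11 in CD45-negative cells, against -3.67 and -2.77 in left ventricle (log2 difference 6.42). The inhibitor Cdkn1c (p57) was lower, at -2.50 and -2.62 in CD45-negative cells, against 2.71 and 2.80 in left ventricle, as were the p53 targets Sesn1 (log2 difference -3.38) and Ccng1 (-1.97). Ccnb1 had log2 differences of 4.84 to 6.21, Bub1 of 4.82 to 7.30 and Cdkn2a of 9.22 to 12.03 with 1 left ventricle array left out.

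Immediate early, lysosomal, stress and interferon genes were also followed, and most of those that passed were higher. Of 18 immediate early and AP-1 genes tested, 12 were higher and 0 lower, with a median of 1.89. Left ventricle replicate 2 was above replicate 1 in 16 of the 18, with a median of replicate 1 minus replicate 2 of -0.99 against 0.07 over all tested genes. The AP-1 subunit Fosl1 was at 0.44 and 0.98 in CD45-negative cells, against -7.12 and -6.12 in left ventricle (not well above background on either left ventricle array), at least 51.1-fold higher. The serum-induced factor Egr1 was at 5.49 and 5.13 in CD45-negative cells, against -0.01 and 0.47 in left ventricle (log2 difference 5.08, SE 0.23, limma adjusted p = 3.2e-05). Fos itself was at 3.65 and 3.33 in CD45-negative cells, against -3.45 and -0.98 in left ventricle (log2 difference 5.70). Jun, its usual partner, was at 3.44 and 4.57 in CD45-negative cells, against 3.60 and 3.58 in left ventricle (log2 difference 0.42) and did not pass. Of 24 lysosomal genes, 15 were higher and 0 lower, with a median of 1.24. Examples were the collagen-cleaving cathepsin Ctsk (2.96) and the tetraspanin Cd63 (2.43). Of 21 genes of the unfolded protein and oxidative stress responses, 8 were higher and 3 lower, with a median of 0.98. Asparagine synthetase Asns had the largest positive difference, at 5.34 and 4.65 in CD45-negative cells, against 1.64 and 1.53 in left ventricle. Of 24 interferon-induced genes, 10 were higher (41.7%, against 20.8% of all tested genes), 4 lower (16.7%, against 20.0%) and 10 did not pass. Their median of 0.16 was -0.17 without CD45-negative replicate 1, 0.76 without replicate 2 and -0.02 with the percentile taken over detected probes. Isg15, a ubiquitin-like protein, was higher by 2.64 log2 units, and the GTPase Gbp4 was at least 21.0-fold lower. Fos had log2 differences of 4.46 to 6.93 with 1 left ventricle array left out.

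**Figure D3:**
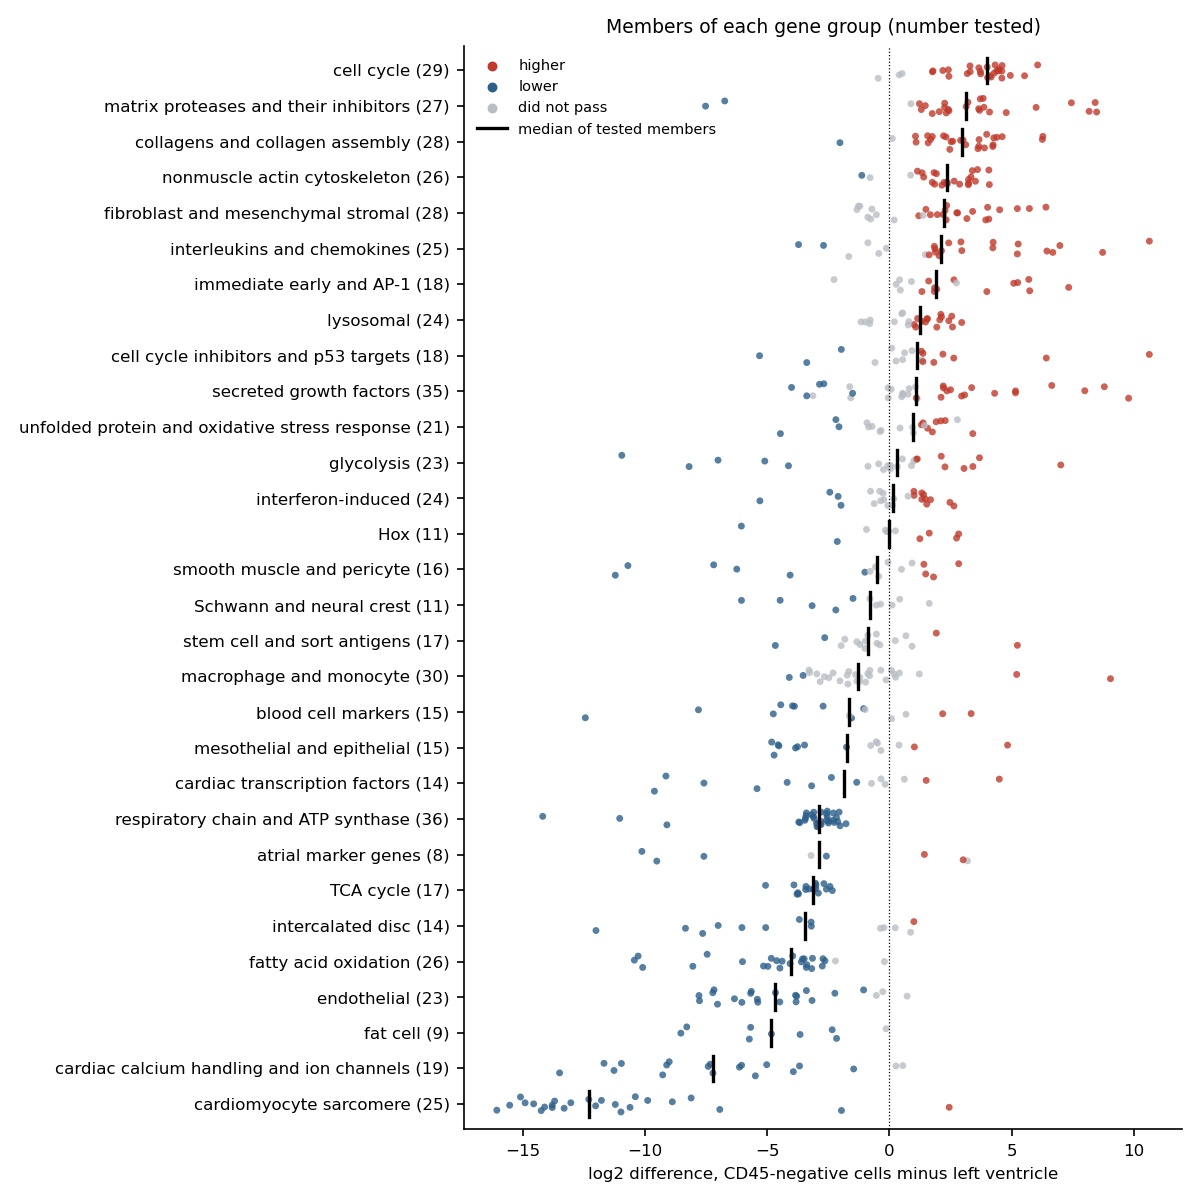
Log2 difference, CD45-negative cells minus left ventricle, of each tested member of the 30 gene groups, with the number tested in brackets. Red points were higher, blue points lower and grey points did not pass, and black bars are group medians, from 4.0 for cell cycle genes at the top to -12.29 for sarcomere genes at the bottom (3.73 and -11.03 with bounds).

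The largest differences of the whole comparison were falls of heart muscle genes. Of 25 sarcomere genes, 24 were lower and 1 higher in CD45-negative cells, with a median of -12.29. In the cells 15 of them were not above background, and the median was -11.03 with such genes at their bounds. Myl3, the essential light chain of ventricular myosin, was at -3.31 and -2.54 in CD45-negative cells, against 10.21 and 9.99 in left ventricle, an 8351-fold lower level (log2 difference -13.03, SE 0.29, limma adjusted p = 9.4e-06). The promoter printed above belongs to it, and its probe lies on chromosome 9 from 110672238 to 110672297 in build mm9. The regulatory light chain Myl2 was at -6.04 and -6.20 in CD45-negative cells, against 9.40 and 9.41 in left ventricle (not well above background on either CD45-negative array) and so at least 12983-fold lower (log2 difference -15.53, SE 0.62, limma adjusted p = 2.4e-05). Mb (myoglobin), the oxygen store of muscle, was at -6.50 and -6.26 in CD45-negative cells, against 9.67 and 9.67 in left ventricle (not well above background on either CD45-negative array), at least 15609.5-fold lower, the largest bound of the comparison. The replicates of each group lay within 1 log2 unit of each other for these 3 genes.

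The other muscle genes of the list were lower by factors that are mostly bounds. The titin cap protein Tcap, the M-band protein Myom2 and the mitochondrial creatine kinase Ckmt2 were not well above background in CD45-negative cells and were at least 8850.5-fold, 7190.1-fold and 7521-fold lower. Ttn (titin), the molecular spring, was at -6.89 and -6.18 in CD45-negative cells, against 7.60 and 7.53 in left ventricle (not well above background on either CD45-negative array). The alpha myosin heavy chain Myh6 was at -4.27 and -5.73 in CD45-negative cells, against 9.72 and 9.38 in left ventricle (not well above background on CD45-negative replicate 2). The cardiac troponins, which couple calcium to contraction, were well above background in the cells too. Troponin I (Tnni3) was at -2.54 and -2.59 in CD45-negative cells, against 8.59 and 8.24 in left ventricle. Troponin C (Tnnc1) was at -3.51 and -3.26 in CD45-negative cells, against 7.34 and 7.10 in left ventricle. Troponin T (Tnnt2) was at -2.08 and -0.43 in CD45-negative cells, against 9.25 and 9.02 in left ventricle. Their log2 differences were -10.98, -10.61 and -10.39, and the groups were far apart. Cardiac actin Actc1 was at -6.81 and -1.71 in CD45-negative cells, against 10.22 and 9.75 in left ventricle (not well above background on CD45-negative replicate 1). The chaperone Cryab had the smallest difference of the 24, at 4.72 and 5.99 in CD45-negative cells, against 7.46 and 7.18 in left ventricle. The exception was Tpm1 (alpha tropomyosin, log2 difference 2.44), a gene with many splice forms: of its 6 tested probes 2 were higher, 2 were lower and 2 did not pass. Myh6 had log2 differences of -15.28 to -13.82, Tnnt2 of -11.22 to -9.56, Actc1 of -16.79 to -11.69 and Cryab of -2.60 to -1.33 with 1 CD45-negative array left out.

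Calcium handling and ion channel genes were mostly lower. Of 19 tested, 17 were lower and 0 higher, with a median of -7.22 (-5.64 with genes not above background in the cells at their bounds). Pln (phospholamban), the brake of the calcium pump, was at -6.74 and -5.90 in CD45-negative cells, against 7.33 and 7.0 in left ventricle (not well above background on either CD45-negative array), at least 2747-fold lower. The calcium release channel Ryr2 was at least 816-fold lower, with 5.37 and 5.46 in left ventricle. The calcium pump Atp2a2 itself, which other cells also use, was well above background on all 4 arrays, at 1.44 and 1.57 in CD45-negative cells, against 8.85 and 8.80 in left ventricle (log2 difference -7.33, SE 0.15, limma adjusted p = 8.9e-06). Hrc, a calcium buffer of the sarcoplasmic reticulum, was at -2.25 and -1.80 in CD45-negative cells, against 7.52 and 6.97 in left ventricle. The sodium-calcium exchanger Slc8a1 (log2 difference 0.55) did not pass, although 2 other probes of it were lower. Of 14 intercalated disc genes, 9 were lower and 1 higher, with a median of -3.44 (-3.14 with bounds). Desmoplakin Dsp, an anchor of intermediate filaments, was at least 1044-fold lower. Connexin 43 (Gja1), the main ventricular gap junction protein, was at -0.73 and -0.88 in CD45-negative cells, against 2.56 and 2.23 in left ventricle. N-cadherin, Cdh2, was the one that was higher, at 6.22 and 6.14 in CD45-negative cells, against 5.53 and 4.83 in left ventricle, with a difference at the threshold (1.0). Cdh2 did not pass without CD45-negative replicate 1 (0.96) or left ventricle replicate 2 (0.65). Cdh2 (0.87) did not pass with the normexp background correction.

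The remaining muscle genes among the 12 lowest were Adprhl1, a heart-enriched relative of ADP-ribosyl hydrolases, Tesc (tescalcin), a calcium-binding partner of a sodium-proton exchanger, and Sgca (alpha-sarcoglycan), part of the dystrophin complex. Their log2 differences were -9.79, -9.53 and -9.19. Alpha globin Hba-a2 was at -1.74 and -1.74 in CD45-negative cells, against 9.39 and 8.66 in left ventricle (log2 difference -10.77, SE 0.28, limma adjusted p = 1.1e-05). This gene and its copy Hba-a1 are near-identical and their signals cannot be told apart.

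Cardiac transcription factors were more often lower than higher. Of 14 tested, 8 were lower (57.1%, against 20.0% of all tested genes) and 2 higher (14.3%, against 20.8%). The median was -1.85 (-1.25 with bounds). Nkx2-5, a homeodomain factor of cardiomyocytes, was at -4.74 and -5.75 in CD45-negative cells, against 4.19 and 4.55 in left ventricle (not well above background on either CD45-negative array), at least 395-fold lower. Myocd (myocardin), a coactivator of muscle genes, was at least 121-fold lower. Hopx, a small homeodomain protein, was at -1.53 and -3.36 in CD45-negative cells, against 5.45 and 4.82 in left ventricle. The zinc finger factor Gata4 was at 3.58 and 3.25 in CD45-negative cells, against 2.62 and 2.99 in left ventricle (log2 difference 0.61, limma adjusted p = 0.0661) and did not pass. Its relative Gata6 (-0.73) and Hand2 (-0.35) did not pass either. Tbx18, a factor of the epicardium and of mural cells, was at 2.02 and 2.0 in CD45-negative cells, against -2.59 and -2.37 in left ventricle (log2 difference 4.49, SE 0.18, limma adjusted p = 2.4e-05). Tbx20, a factor of several heart cell types, was at 3.03 and 3.55 in CD45-negative cells, against 1.81 and 1.76 in left ventricle. Hand1 and Isl1 were not well above background on any of the 4 arrays. Hopx had log2 differences of -8.50 to -6.67 with 1 CD45-negative array left out. The difference of Gata6 was -1.16 without CD45-negative replicate 1 and -0.31 without replicate 2.

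Atrial marker genes could be compared only with the spread between the ventricle arrays in view. Of 10 genes, 8 were tested, 4 were lower and 2 higher, and the median of -2.89 ran from -5.08 to -0.70 with 1 array left out. Nppa, the atrial natriuretic peptide, was at -2.99 and -2.52 in CD45-negative cells, against 5.95 and 8.78 in left ventricle (log2 difference -10.12, SE 0.82, limma adjusted p = 0.000194). Nppb (brain natriuretic peptide) was at -5.44 and -4.52 in CD45-negative cells, against 4.38 and 4.69 in left ventricle (not well above background on either CD45-negative array), at least 444-fold lower. Myl7 passed with a difference of -7.59 but an SE of 2.31. The atrial transcription factors Nr2f1 and Nr2f2 (COUP-TF) were higher, with 4.50 and 3.81 for Nr2f1 in CD45-negative cells against 0.94 and 1.33 in left ventricle, and a difference of 1.43 for Nr2f2. Bmp10, a growth factor of atrial muscle, was at -4.50 and -3.20 in CD45-negative cells, against -4.70 and -4.79 in left ventricle and was not tested. Nppa had log2 differences of -11.53 to -8.71 and Myl7 of -11.47 to -3.71 with 1 left ventricle array left out. Myl7 did not pass without CD45-negative replicate 1 (-7.16) or CD45-negative replicate 2 (-8.01). Nr2f2 did not pass without CD45-negative replicate 1 (0.96) or left ventricle replicate 1 (1.13). Myl7 (-4.06) did not pass with the normexp background correction.

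Genes of mitochondrial energy metabolism were lower throughout the lists tested. All 36 respiratory chain and ATP synthase genes tested were lower and 0 higher, with a median of -2.86. The 3 heart and muscle isoforms of cytochrome oxidase had the largest differences. Cox8b was at -5.87 and -6.12 in CD45-negative cells, against 8.32 and 8.05 in left ventricle (not well above background on either CD45-negative array), at least 5555-fold lower. Cox6a2 was at -3.02 and -0.75 in CD45-negative cells, against 9.27 and 9.03 in left ventricle. Cox7a1 was at -0.23 and -0.69 in CD45-negative cells, against 8.84 and 8.44 in left ventricle. The other 33 subunits had smaller differences, from -3.71 for Uqcrfs1 of complex III to -1.78 for Atp5c1 of the ATP synthase. Atp5b, the catalytic beta subunit, was at 7.25 and 7.25 in CD45-negative cells, against 9.39 and 9.34 in left ventricle (log2 difference -2.11, SE 0.15, limma adjusted p = 0.000126). All 17 tricarboxylic acid cycle genes were lower, with a median of -3.11, among them Cs (citrate synthase), at 5.80 and 5.47 in CD45-negative cells, against 8.43 and 8.19 in left ventricle. Cox6a2 had log2 differences of -12.16 to -9.89 with 1 CD45-negative array left out.

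Fatty acid oxidation genes were lower, whereas glycolysis genes differed in both directions. Of 26 fatty acid oxidation genes tested, 24 were lower and 0 higher, with a median of -4.01. Fabp3, the fatty acid carrier of muscle, was at -2.73 and -0.19 in CD45-negative cells, against 8.99 and 8.95 in left ventricle (log2 difference -10.43, SE 0.73, limma adjusted p = 0.000120). Cpt1b, the muscle enzyme that admits fatty acids to mitochondria, was at -3.40 and -1.48 in CD45-negative cells, against 5.05 and 4.97 in left ventricle. The dehydrogenase Acadm was at 3.14 and 2.63 in CD45-negative cells, against 8.05 and 8.02 in left ventricle. Ppargc1a, a coactivator of mitochondrial genes, was at least 238-fold lower. Of 23 glycolysis genes, 8 were higher (34.8%, against 20.8% of all tested genes) and 5 lower (21.7%, against 20.0%), with a median of 0.32. The 5 that were lower were the insulin-responsive glucose transporter Slc2a4 (-10.94) and the muscle or heart isoforms Pgam2 (-8.19), Eno3 (-7.01), Ldhb (-5.10) and Pfkm (-4.13). Widely expressed counterparts were higher. The glucose transporter Slc2a1 was at 4.86 and 4.78 in CD45-negative cells, against 0.96 and 1.32 in left ventricle. The mutase Pgam1 was at 7.07 and 6.94 in CD45-negative cells, against 3.94 and 3.98 in left ventricle. The enolase Eno1 had a difference of 2.27. Gapdh (-0.24) and the lactate dehydrogenase Ldha (0.53) did not pass. Fabp3 had log2 differences of -11.70 to -9.16, Cpt1b of -8.41 to -6.50 and Slc2a4 of -11.94 to -9.95 with 1 CD45-negative array left out.

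Among markers of other cell types of the ventricular wall, endothelial genes were mostly lower in CD45-negative cells, and smooth muscle and mesothelial genes differed in both directions. Of 23 endothelial genes tested, 20 were lower and 0 higher, with a median of -4.66 (-3.84 with bounds), and the summed level of the list was 53.4 and 73.7 in CD45-negative cells, against 464 and 631 in left ventricle. VE-cadherin, Cdh5, was at -2.89 and -1.85 in CD45-negative cells, against 2.97 and 3.59 in left ventricle (log2 difference -5.65, SE 0.40, limma adjusted p = 0.000124). The adhesion molecule Pecam1 was at -2.78 and -2.27 in CD45-negative cells, against 1.03 and 1.55 in left ventricle. The VEGF receptor Kdr was at 3.69 and 4.17 in CD45-negative cells, against 3.59 and 2.83 in left ventricle and did not pass, although its other probe was lower. Of 16 smooth muscle and pericyte genes, 6 were lower (37.5%, against 20.0% of all tested genes) and 4 higher (25%, against 20.8%). The remaining 6 did not pass. The median of this list was -0.50, and its summed level was 296 and 317 in CD45-negative cells, against 296 and 249 in left ventricle. Smooth muscle myosin Myh11 was at least 15.5-fold lower and the pericyte gene Rgs5 at least 574-fold. The actin-binding protein Tagln was at 6.69 and 6.63 in CD45-negative cells, against 3.09 and 4.57 in left ventricle and passed as higher. Smooth muscle actin Acta2 was at 6.68 and 6.45 in CD45-negative cells, against 6.32 and 4.96 in left ventricle (log2 difference 0.93) and did not pass. Of 15 mesothelial and epithelial genes, 8 were lower (53.3%, against 20.0% of all tested genes) and 2 higher (13.3%, against 20.8%). Their median was -1.75 (-0.82 with bounds). The summed level of the list was 52.5 and 13.9 in CD45-negative cells, against 10.6 and 13.2 in left ventricle. Most of the sum in the cells came from Aldh1a2, given below. Msln (mesothelin) was at -1.62 and -2.50 in CD45-negative cells, against 1.55 and 2.0 in left ventricle. The retinoic acid enzyme Aldh1a2, which was higher, was at 5.59 and 3.49 in CD45-negative cells, against 0.21 and -0.80 in left ventricle. Rgs5 had log2 differences of -11.81 to -9.57 and Aldh1a2 of 3.78 to 5.88 with 1 CD45-negative array left out. Myh11 had log2 differences of -6.88 to -5.60 and Tagln of 2.09 to 3.57 with 1 left ventricle array left out. Without left ventricle replicate 1 the difference was 1.10 for Kdr and 1.61 for Acta2, and without replicate 2 it was 0.34 and 0.25.

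Of the nerve-associated, fat and blood cell genes that passed, most were lower. Of 11 Schwann and neural crest genes tested, 5 were lower and 0 higher, including Sox10 (-1.49), and the summed level of the list was 6.61 and 14.9 in CD45-negative cells, against 11.5 and 8.66 in left ventricle. Of 9 fat cell genes, 8 were lower and 0 higher. Adipoq (adiponectin) was at -6.72 and -5.20 in CD45-negative cells, against -2.35 and 0.08 in left ventricle (not well above background on either CD45-negative array). The summed levels of this list are given above with the gap between the ventricle arrays. Of 15 blood cell genes tested, 9 were lower and 2 higher. The mast cell proteases Cpa3 and Mcpt4, which bear on a sort by c-kit because mast cells carry it, were not well above background in the CD45-negative cells, with bounds of 4.70-fold lower for Cpa3 and 11.5-fold lower for Mcpt4. The 2 that were higher were the neutrophil granule genes Camp (2.18) and Mpo (3.34), at -1.20 and -1.33 for Camp and -1.13 and -2.54 for Mpo in the cells, above background. Adipoq had log2 differences of -6.04 to -3.61 and Mpo of 2.64 to 4.05 with 1 array of either group left out. Sox10 (-0.80) and Adipoq (-1.62) did not pass with the normexp background correction.

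The CD45-negative replicates stood apart on the macrophage and monocyte list. Of 30 tested, 2 were higher, 2 lower and 26 did not pass. Replicate 2 was above replicate 1 for 29 of the 30 genes, against 49.7% of all tested genes. The median difference of -1.28 became 0.23 without CD45-negative replicate 1 and -3.44 without replicate 2. The median of replicate 1 minus replicate 2 was -3.46 log2 units over the list, against 0.00487 over all tested genes. Among the members of the list, the colony-stimulating factor 1 receptor Csf1r was at 1.07 and 3.84 in CD45-negative cells, against 4.61 and 4.34 in left ventricle. The lysosomal protease Ctss was at -1.63 and 3.56 in CD45-negative cells, against 1.83 and 1.72 in left ventricle. The inhibitory receptor Lilrb4a was at -2.09 and 4.16 in CD45-negative cells, against 1.57 and 1.21 in left ventricle. It is also named below, where genes were chosen for their gap between these replicates. For Ctss and Lilrb4a replicate 1 lay below both ventricle values and replicate 2 above them, while both CD45-negative values of Csf1r lay below ventricle. The 2 genes that were lower were Cd163, a scavenger receptor of resident macrophages, and the chemokine receptor Ccr2, at least 2.48-fold and 3.86-fold. Those that were higher were Lgals3 (galectin 3), at 5.23 and 6.31 in CD45-negative cells, against 0.31 and 0.83 in left ventricle (log2 difference 5.20, SE 0.38, limma adjusted p = 0.000131), and Plac8, both of which are expressed outside macrophages too. The part of the macrophage transcripts in other differences was not tested. Without CD45-negative replicate 1 the difference was -0.64 for Csf1r and 2.77 for Lilrb4a, and without replicate 2 it was -3.40 and -3.47. Cd163 (-0.53) and Ccr2 (-0.82) did not pass with the normexp background correction.

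**Figure D4:**
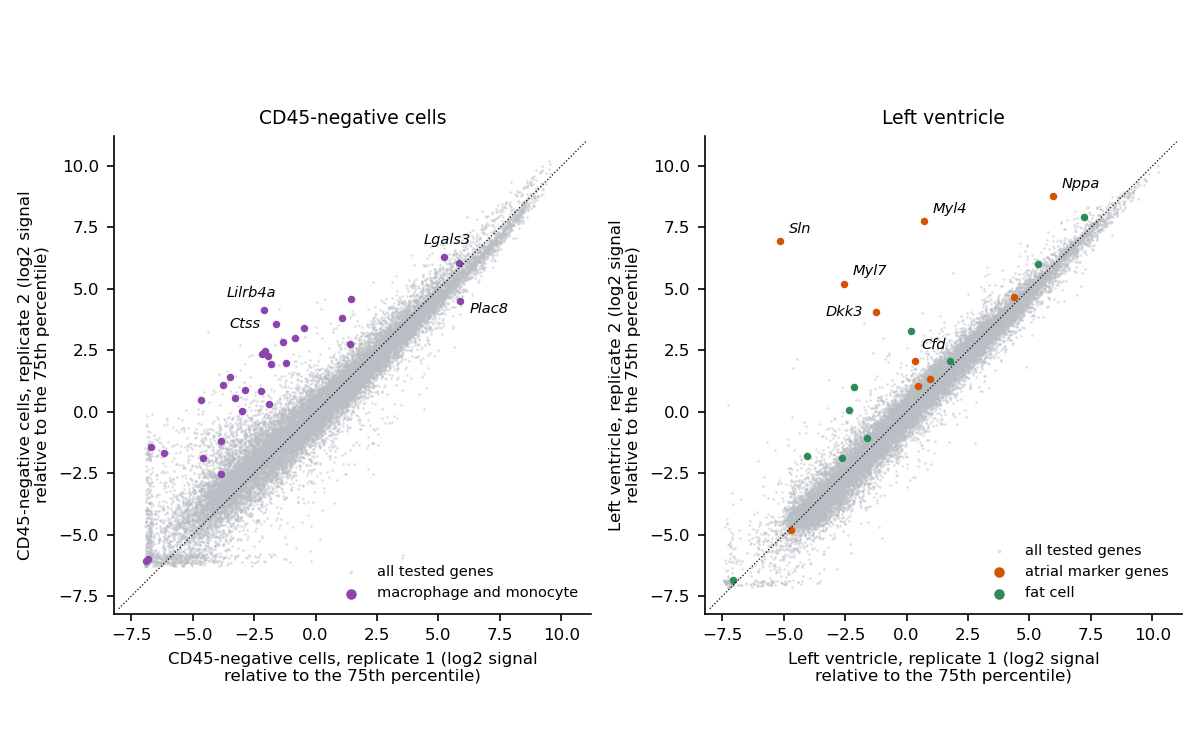
Log2 signal of each tested gene in replicate 2 (vertical axis) against replicate 1 (horizontal axis), for CD45-negative cells (left panel) and left ventricle (right panel), relative to the 75th percentile of the array. Coloured points are members, tested or not, of the macrophage and monocyte list in the left panel and of the atrial marker and fat cell lists in the right panel, and the dotted lines mark equal levels. Most macrophage genes lie above the line in the left panel, with Ctss at -1.63 and 3.56, and 5 atrial genes lie far above it in the right panel, with Sln at -5.12 and 6.94.

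The genes with the widest gaps between the CD45-negative replicates, 5 in each direction, had diverse functions. Higher in replicate 2 were the gut and brain peptide Cck (-4.35 and 3.24 in CD45-negative cells, against -4.39 and -4.56 in left ventricle) and 4 genes known from macrophages, Lilrb4a, Wfdc17 (-3.07 and 2.72), Gpnmb (-1.48 and 4.20) and Cd72 (-3.61 and 1.66). Higher in replicate 1 were the mitochondrial carriers Ucp3 (2.32 and -2.54) and Ucp2 (2.13 and -2.34), the enzyme regulator Gchfr (0.74 and -3.70), the receptor-like gene Pdgfrl (4.43 and 0.12) and the apolipoprotein Apoc1 (2.53 and -1.35). Of these 10, Gchfr alone passed against left ventricle (log2 difference -3.76, limma adjusted p = 0.0469). Gchfr had log2 differences of -5.98 to -1.54 with 1 CD45-negative array left out. Gchfr did not pass without left ventricle replicate 1 (-3.53) or left ventricle replicate 2 (-4.0). Without CD45-negative replicate 1 the differences were 7.71 for Cck, 2.98 for Wfdc17, 7.31 for Gpnmb and 4.49 for Cd72. In the same fit they were -4.64 for Ucp3 and -3.26 for Ucp2. Without CD45-negative replicate 2 they were -2.81 for Wfdc17, 4.40 for Pdgfrl and 3.86 for Apoc1. Each of these fits held 1 array of the CD45-negative cells, so the gap for which the genes were chosen is not part of its spread.

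Stem cell antigens and Hox genes were followed as well. The median of the 17 stem cell and sort antigen genes tested was -0.88. Of them, 2 were higher (11.8%, against 20.8% of all tested genes) and 2 lower (11.8%, against 20.0%). The first pair were Thy1, described above, and the growth regulator Myc, at 0.92 and 0.71 in CD45-negative cells, against -1.82 and -0.38 in left ventricle. The second were Prom1 (CD133), at least 7.76-fold lower, and the drug efflux pump Abcb1a, at -1.78 and -1.42 in CD45-negative cells, against 0.34 and 1.75 in left ventricle. The pluripotency genes Pou5f1, Sox2 and Zfp42 were not well above background on any of the 4 arrays. Of 25 Hox genes, which mark position along the body axis, 11 were tested. Of these, 4 were higher (36.4%, against 20.8% of all tested genes) and 2 lower (18.2%, against 20.0%). Their median was -0.03 and changed sign under some of the alternatives. Hoxb6 was lower by at least 25.7-fold, with 0.44 and 0.41 in left ventricle, and Hoxb2 higher by 1.63 log2 units. Prom1 had log2 differences of -5.25 to -4.07 with 1 CD45-negative array left out. Myc had log2 differences of 1.19 to 2.64 and Abcb1a of -3.35 to -1.94 with 1 left ventricle array left out.

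Whether CD45-negative cells differed from the other cultured cells in the named genes was tested as the difference between the cell groups, in the same limma fit. Such a difference does not show whether the other cultures also differed from left ventricle. Relative to CD45-positive cells, CD45-negative cells had a higher level in 12.5% of 21641 tested genes and a lower one in 11.7%, and against passage-8 cells 8.16% of 22903 were higher and 8.72% lower. Of the 11 genes named as highest, 6 were also higher than in CD45-positive cells and 6 than in passage-8 cells. Because the 11 were chosen on these CD45-negative arrays, these counts are a description. Plac8, Timp1, Tubb3 and Steap2 were higher than in both. For each of these genes the means of both other cultures also lay above that of left ventricle. Means of CD45-positive cells, passage-8 cells and left ventricle, in this order, were 6.85, 5.68 and -0.05 for Timp1. They were 1.95, 2.92 and -3.85 for Steap2, 1.36, 0.21 and -3.85 for Plac8, and 2.52, 0.25 and -4.28 for Tubb3. Plac8 differed most, by 4.98 log2 units from passage-8 cells (SE 0.47, limma adjusted p = 0.00135) and by 3.82 from CD45-positive cells (SE 0.47, limma adjusted p = 0.00226). Mmp3 passed in neither, with differences of 0.51 from CD45-positive cells (SE 0.65, limma adjusted p = 0.577) and 1.93 from passage-8 cells (SE 0.65, limma adjusted p = 0.0787). Slc16a3 passed in neither because its differences, 0.9998 from CD45-positive cells (limma adjusted p = 0.00944) and 0.86 from passage-8 cells (limma adjusted p = 0.0243), were under 1. Sqle passed in neither, with differences of 0.25 and 0.14. Il6 was higher than in passage-8 cells by 2.62 (limma adjusted p = 0.00363) and differed from CD45-positive cells by 0.15 (SE 0.33, limma adjusted p = 0.743). Of the 12 genes named as lowest, Cox6a2 and Fabp3 were lower and Sgca higher than in CD45-positive cells, and Tnni3, Fabp3 and Tnnt2 were lower than in passage-8 cells. By list, the median difference from CD45-positive cells was -0.46 over 11 tested sarcomere genes and 0.03 over 36 respiratory chain genes. From left ventricle these lists had medians of -12.29 and -2.86. Other lists set the cultures apart, with medians of -6.63 from CD45-positive cells for macrophage genes and -4.22 from passage-8 cells for Hox genes.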

How the data were processed

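RNA of 8 samples was hybridised to 1-colour Agilent mouse arrays, 200 ng of total RNA labelled with Cy3 per the labels' protocols, and, per the submitters' processing notes, the scans were read with Agilent Feature Extraction 10.7. The deposited scanner files hold the processed intensity of each of 59305 non-control spots, background-subtracted per the file headers, and flags for spots well above background. The deposited value table holds log2 values (column medians 6.087 to 6.094) of which the normalization is not given, and it was used as an alternative. All 8 arrays lay on 1 slide and were read in 1 scan.

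Intensities were divided by the 75th percentile of each array and taken to log2. Outlier spots (167 to 248 per array) were left out, 0 spots were saturated, and 35 tested genes lacked a value on some array. Spots of a probe were averaged. A gene with several probes was represented by its brightest one on average over the 8 arrays. Of 55681 probes, 27235 matched RefSeq accessions, which updated 2838 symbols, and 11042 gene names had several probes. Genes were tested where both arrays of either group had that probe well above background.

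Group means were fitted over all 8 arrays with limma 3.58.1 (R 4.3.3), with 4 residual degrees of freedom, and p-values were adjusted by Benjamini-Hochberg over 22403 genes. An exact permutation test of 2 against 2 arrays cannot give a p below 0.333. Where no array of a group was well above background, the fold is a bound, taken against the dimmest signal well above background, or against the probe itself where that was brighter. Named genes were Ptprc and Kit, the 12 highest and 12 lowest differences among genes well above background on all 4 arrays, the 5 highest bounds in each direction, the 5 widest gaps between CD45-negative replicates in each direction, and members of 30 gene lists, 1 of whose 696 entries (Hbb-b1) was not matched. Names of clones and predicted genes were skipped. Some genes that these rules name are not reported here. Members and lists were chosen with earlier results of these data known. The fit was tested on simulated data. Alternatives changed normalization, background correction, filter, probe choice, arrays fitted, moderation, block, threshold and arrays left out. Probe coordinates are of build mm9, per the file headers.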

Additional observations from a re-analysis of the deposited data

Results flagged for a closer look

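These differences between cell groups were tested in the same limma fit. Each value is the difference from left ventricle in CD45-negative cells minus that in another cultured group, which equals the difference between the 2 cell groups, on the log2 scale. It does not show that the other group was level with left ventricle. The genes had been chosen on the CD45-negative and left ventricle arrays, so the values describe them further and are not independent of the choice.

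Against CD45-positive cells, CD45-negative cells were higher in 7 genes of secreted or membrane proteins and enzymes among those named as highest or with the highest bounds: Mfsd2a by 4.03, Plac8 by 3.82, Steap1 by 2.49, Steap2 by 2.17, Clca3a1 by 1.68, Timp1 by 1.58 and Cxcl5 by 1.42. Clca3a2 (1.58) shares its sequence closely with Clca3a1, and the tubulin Tubb3 was higher by 1.44. Among the muscle genes, Cox6a2 was lower (-3.60), as was Fabp3 (-3.14). Myl2 passed with -2.08 but was not well above background in CD45-negative cells, so the size of its difference is not established. Its values in CD45-positive cells, -4.04 and -4.04, lay near the dimmest signals well above background on the CD45-negative arrays (-4.58 and -3.94). Sgca was higher by 1.03. The limma adjusted p of these 13 values lay between 0.000462 and 0.0426.

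Against passage-8 cells, CD45-negative cells were higher in Mfsd2a by 5.29, Plac8 by 4.98, Ch25h by 4.30, Ereg by 4.19 and Cxcl5 by 3.88. The difference was 3.70 for Tubb3, 2.75 for Timp1, 2.62 for Il6, 2.60 for Cxcl1 and 1.20 for Steap2. The muscle genes Tnnt2 (-3.67), Fabp3 (-3.16) and Tnni3 (-1.38) were lower. Myom2 passed with -2.90 but was not well above background in CD45-negative cells, so the size of its difference is not established. Its values in passage-8 cells, -3.41 and -3.85, lay near the dimmest signals well above background on the CD45-negative arrays (-4.58 and -3.94). The limma adjusted p of these 14 values lay between 0.000116 and 0.0288.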

How the results depend on the processing

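Each result was recomputed under 17 alternatives. Over all genes, 3861 to 6291 were higher and 2718 to 5483 lower in CD45-negative cells. These counts were within 1.5 times the reported ones except the 2718 lower genes left when a gene had to be well above background on all 4 arrays (4099 higher, 18427 tested), a filter that drops genes not detected in the cells. With 1 array left out 4293 to 4953 genes were higher and 3958 to 4886 lower. Of the genes that passed, 51.0% were higher, a share that ran from 43.1% (75th percentile over detected probes, median of all genes shifted by -0.18) to 60.1% (genes above background on all 4 arrays, shifted by 0.14). The normexp background correction, which adds an offset of 50 to each signal, gave 4000 higher and 3021 lower genes (shifted by 0.18). It shared 3949 of the 4649 higher calls (84.9%) and 2859 of the 4475 lower calls (63.9%), and 401 genes called lower had the opposite sign. Of the named genes, 13 lost the call under it: Adipoq, Ccr2, Cd163, Cdh2, Col4a1, Col4a2, Fgf10, Fmod, Igf2, Il1rl1, Myl7, Pgf and Sox10. The bounds of all 37 named genes that have one exceeded the normexp differences. The deviations of same-numbered arrays of the 2 groups had a correlation of -0.06, which cannot show whether the samples were paired. The fit with the replicate number as a block gave 4608 higher and 4454 lower genes. Of 3116 values of 186 named genes under the alternatives, 2979 kept direction and call, 84 lost the call, 38 gained it and 15 reversed. With 1 array left out, the genes that turned in sign had log2 differences of -4.37 to 0.43 for Kit, -3.47 to 2.77 for Lilrb4a, -2.81 to 2.98 for Wfdc17, -0.78 to 4.49 for Cd72, -4.64 to 0.22 for Ucp3, -3.26 to 1.21 for Ucp2, -0.017 to 3.86 for Apoc1, -0.71 to 0.022 for Hand2, -0.15 to 0.98 for Jun and -6.72 to 0.32 for Myl4. Wfdc17 was at -0.25 without left ventricle replicate 2 and at -0.090 with the percentile over detected probes. The mean over all probes gave -3.61 for Kdr, -1.89 for Slc8a1 and -2.21 for Tpm1, whose probes differ. For the other genes the cause was not tested. Group medians changed sign for macrophage genes without CD45-negative replicate 1 (0.23), for smooth muscle genes on genes above background on all 4 arrays (0.22), for interferon-induced genes under 2 and for Hox genes under 6 alternatives. The 2 arrays per group limit what can be detected. In simulated data, 61 of 100 genes shifted by 2 log2 units were recovered, 81 of 100 at 4 log2 units, and 9 unshifted genes were called. Far fewer genes were shifted there than passed in the data, and each gene had the same spread in all groups. These counts therefore check the fit and do not measure detection in this comparison.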
